A study of Mus musculus with 2 samples.

Results

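Mitosis and cell proliferation were followed in the liver through 10 genes: *Top2a*, *Mki67*, *Aurka*, *Aurkb*, *Bub1*, *Bub1b*, *Kif11*, *Kif20a*, *Cenpe* and *Cenpf*. They were chosen by name, as 10 of the 45777 gene symbols of the deposited table, and the estimated counts of all RefSeq transcripts of a symbol were summed. The livers came from C57BL/6 mice that were 7 weeks old when high-fat diet (HFD) feeding began and that were fed the HFD for 18 weeks. At week 13 of the diet, with 5 weeks of it left, the mice received AAV-GFP (the control, which makes green fluorescent protein) or AAV-*Wee1-AS*, which makes the long noncoding RNA *Wee1-AS*. Both groups therefore share the HFD and a virus injection. Per the study's methods, AAV-*Wee1-AS* was an AAV of serotype 9 with the CMV promoter, given into the retro-orbital sinus, and this vector is not restricted to hepatocytes. One library of poly-A RNA per group was analysed here, 55466182 estimated counts with AAV-GFP and 48079335 with AAV-*Wee1-AS*, whereas the design text of the series names 4 liver samples, and whether animals were pooled is not stated. With 1 library per group the differences have no replicate check, so no p-value is given, and "higher" and "lower" compare these 2 libraries only. The transcript *Wee1-AS* itself was not analysed here.

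At entry into mitosis, CDK1 with cyclin B is switched on, and the WEE1 kinase holds it back. Chromosomes are then condensed and disentangled, captured by spindle microtubules at their kinetochores, checked for correct attachment, and pulled apart before the cell divides. The genes of this programme are transcribed mainly late in the cell cycle, and most hepatocytes of an adult liver are not cycling. *Top2a* encodes topoisomerase IIα, which untangles DNA, and *Mki67* the proliferation marker Ki-67, which coats mitotic chromosomes. *Aurka* and *Aurkb* encode Aurora kinases, *Bub1* and *Bub1b* checkpoint kinases of the kinetochore (BUBR1 is the product of *Bub1b*), *Kif11* and *Kif20a* kinesin motors, and *Cenpe* and *Cenpf* large kinetochore proteins.

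Promoters of such genes often carry CCAAT boxes, bound by NF-Y, and a cell cycle genes homology region (CHR), bound by DREAM and MuvB complexes. The RefSeq promoter table (GRCm38.p6) held a window of 300 bases, 250 before and 50 after the start site, for 8 of the 10 genes. A window was searched on both strands for CCAAT, which reads ATTGG on the other strand, for the CHR spelled TTTGAA, whose other strand reads TTCAAA, and for the CHR spelled TTCGAA, which reads the same on both strands. No match in the 8 windows shared a base with another. A CCAAT box was found in 8 of the 8 windows (100%), against 37.4% of all 32851 windows and 64.5% of 76 windows of 5 lists of other mitotic genes. A CHR of either kind was found in 7 of 8 (87.5%), against 19.2% and 59.2%. The exception was *Cenpe*, with 1 CCAAT box and no CHR by these letters. These matches describe the letters of the windows and show no binding. Windows of 4 genes are given from 250 bases before to 30 bases after the start site, 5′ to 3′ on the gene's strand, with the motifs in capitals. They belong to the gene with the highest count with AAV-*Wee1-AS* (*Top2a*), to *Mki67*, and to the genes listed at 0 in 1 library (*Cenpf*) and in both (*Bub1*). *Top2a* (chr11:99024160-99024439) held 6 CCAAT boxes and 4 CHR, *Mki67* (chr7:135716350-135716629) 3 and 2, *Cenpf* (chr1:189688057-189688336) 2 and 1, and *Bub1* (chr2:127831830-127832109) 2 and 1, all on the minus strand of their chromosomes.
Top2a: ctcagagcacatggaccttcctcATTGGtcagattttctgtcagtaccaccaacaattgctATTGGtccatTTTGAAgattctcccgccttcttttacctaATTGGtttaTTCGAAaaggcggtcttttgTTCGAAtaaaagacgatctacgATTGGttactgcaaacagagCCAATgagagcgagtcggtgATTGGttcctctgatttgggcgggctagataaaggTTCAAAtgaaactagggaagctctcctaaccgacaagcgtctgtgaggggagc
Mki67: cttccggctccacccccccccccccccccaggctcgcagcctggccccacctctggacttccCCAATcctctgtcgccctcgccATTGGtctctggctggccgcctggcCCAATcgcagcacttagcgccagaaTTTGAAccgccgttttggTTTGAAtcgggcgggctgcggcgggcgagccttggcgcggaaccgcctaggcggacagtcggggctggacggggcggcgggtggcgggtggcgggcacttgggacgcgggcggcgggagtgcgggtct
Cenpf: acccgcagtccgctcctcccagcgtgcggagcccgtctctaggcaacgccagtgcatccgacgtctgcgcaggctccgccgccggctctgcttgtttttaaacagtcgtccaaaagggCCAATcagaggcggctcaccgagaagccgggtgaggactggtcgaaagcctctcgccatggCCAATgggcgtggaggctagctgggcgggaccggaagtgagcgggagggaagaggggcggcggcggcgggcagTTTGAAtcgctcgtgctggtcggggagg
Bub1: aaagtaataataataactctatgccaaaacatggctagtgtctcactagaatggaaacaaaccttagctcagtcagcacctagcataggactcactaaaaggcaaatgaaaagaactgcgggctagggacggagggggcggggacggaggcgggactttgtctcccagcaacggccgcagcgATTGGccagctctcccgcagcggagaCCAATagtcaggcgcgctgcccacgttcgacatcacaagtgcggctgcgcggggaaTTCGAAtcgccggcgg

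*Top2a* and *Mki67* had the highest counts with AAV-*Wee1-AS*. *Top2a* (chr11:98992947-99024199 in mm10) had 86 estimated counts with AAV-GFP and 139 with AAV-*Wee1-AS*. After TMM scaling, its log2 ratio, here always AAV-*Wee1-AS* over AAV-GFP, was 0.94, with an exact (Clopper-Pearson) 95% interval of 0.56 to 1.36 from the 2 counts. *Mki67* (chr7:135689784-135716450) had 67 and 135 counts and a log2 ratio of 1.25 (0.84 to 1.72). Both were thus higher with AAV-*Wee1-AS* by more than counting error, *Top2a* 1.94-fold and *Mki67* 2.42-fold. Neither call held after removal of the trends with base composition and length. *Top2a* was then at -0.33 (-0.71 to 0.09) and *Mki67* at 0.05 (-0.35 to 0.53). Folds are those of the scaled counts alone, whereas log2 ratios carry a prior count of 2, which draws the ratios of low counts towards 0. Such intervals cover counting error only: they hold neither the spread between mice nor copies made by PCR, and both reads of a fragment may have entered the deposited counts.

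The summed counts of the Aurora kinases differed from each other. *Aurka* (chr2:172356190-172370886), whose kinase works at centrosomes and spindle poles, had 106 and 94 counts, a log2 ratio of 0.09 (-0.33 to 0.50). This difference was within counting error, and its sign turned under upper-quartile scaling (-0.11). *Aurkb* (chr11:69045624-69051664), the kinase of the chromosomal passenger complex, had 87 counts with AAV-GFP and 20 with AAV-*Wee1-AS*, a log2 ratio of -1.77 (-2.64 to -1.14). Without the prior count, it was 3.62-fold lower with AAV-*Wee1-AS*. The intervals of the 2 Aurora kinases did not overlap. This contrast held for sums over transcripts and not for single transcripts: over curated transcripts alone *Aurka* was at -1.50 and *Aurkb* at -1.44, and over the most abundant transcript of each at -1.47 and -1.41. *Aurkb* was the only one of the 10 genes that was lower with AAV-*Wee1-AS* by more than counting error. The 3 other subunits of its complex were not lower: *Incenp*, the scaffold, had 139 and 119 counts (log2 ratio 0.04), *Birc5* (survivin) 100 and 88 (0.08), and *Cdca8* (borealin) 87 and 78 (0.10), each with an interval that included 0. The median of these 3 was -0.12 under upper-quartile scaling and 0.46 (*Birc5* -0.37) after removal of the trends with base composition and length, which are given with the GC contents.

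Of the checkpoint kinases, *Bub1* (chr2:127800197-127831859) was listed at 0 in both libraries, for each of its 3 transcripts. A count of 0 allows up to 3 counts, 0.053 CPM (counts scaled to library size) with AAV-GFP and 0.0637 with AAV-*Wee1-AS*, so *Bub1* was not detectable at this depth and has no ratio. *Bub1b* (chr2:118598202-118641592) had 90 and 59 counts, a log2 ratio of -0.34 (-0.84 to 0.14), within counting error.

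The 2 kinesins also differed. *Kif11* (chr19:37376382-37421863), the motor that pushes spindle poles apart, had 10 and 37 counts, a log2 ratio of 1.94 (1.11 to 3.32). Without the prior count, it was 4.44-fold higher with AAV-*Wee1-AS*. After removal of the trends with base composition and length, *Kif11* was at 0.57 (-0.25 to 1.96), and its interval then overlapped that of *Kif20a*. *Kif20a* (chr18:34624624-34633277), a motor of the central spindle in cytokinesis, had 83 and 68 counts, a log2 ratio of -0.02 (-0.51 to 0.46). *Kif20a* is uncertain for a further reason: in GENCODE, 1271 of its 4338 exon bases lie on the opposite strand to exons of *Cdc23*, and although the library kit marked strand, whether the counting used it is not given in the sources used here.

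Both CENP genes were at the lower end. *Cenpe* (chr3:135212563-135273540), a kinetochore motor that moves chromosomes to the spindle equator, had 11 and 23 counts, a log2 ratio of 1.18 (0.23 to 2.51). With the counts halved, for 2 reads per fragment, this interval reached from -0.25 to 3.11 and included 0, the only call of the 10 genes that halving ended. After removal of the trends with base composition and length, *Cenpe* was at -0.40 (-1.34 to 0.93). *Cenpf* (chr1:189640606-189688107), a kinetochore protein of late G2 and mitosis, had 0 counts with AAV-GFP and 21 with AAV-*Wee1-AS*. Against a floor of 3 counts in the AAV-GFP library it was at least 8.4-fold higher, if its 21 counts are taken as exact. The exact interval of its log2 ratio, which holds the counting error of both libraries, began lower than this bound, at 2.64. It passed the count filter only through the AAV-*Wee1-AS* library.

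**Figure D1:**
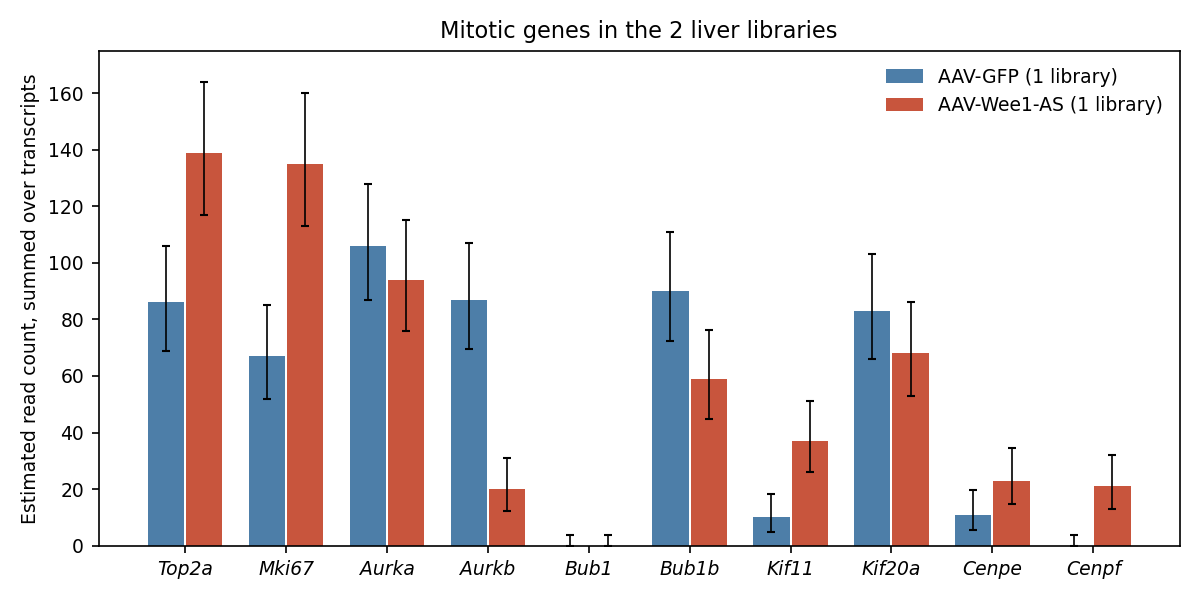
Estimated read counts of the 10 genes (y axis), summed over transcripts, in the AAV-GFP (blue) and AAV-Wee1-AS (red) libraries, 1 library each and not scaled for depth. Error bars are exact 95% Poisson intervals of each count. *Aurkb* has 87 against 20 counts, *Mki67* 67 against 135, and *Bub1* 0 in both.

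Of the 10 genes, 9 passed the filter of at least 10 counts in at least 1 library. Of these, 4 lay above 2-fold (*Mki67*, *Kif11*, *Cenpe* and *Cenpf*), where 22.2% of the 15857 genes past the filter did, and 1 lay below 0.5 (*Aurkb*), where 8.71% did. These shares differed by GC content, in groups given below. Above 2-fold lay 57.3% of the GC group of *Kif11*, *Cenpe* and *Cenpf* and 37.5% of that of *Mki67*. Below 0.5 lay 12.2% of the GC group of *Aurkb*. The counting interval lay wholly above a ratio of 1 for 5 of the 10 genes (39.1% of genes past the filter) and wholly below it for 1 (38%). The median log2 ratio of the 9 genes was 0.94, and 0.51 over the 8 genes that had 10 or more counts in each library, which leaves out *Cenpf*. With *Cenpf* at its bound the median of the 9 stays 0.94, since *Cenpf* is the highest of them, and that of all genes past the filter was -0.02. With AAV-*Wee1-AS*, 6 genes were higher and 3 lower, or 5 and 4 under upper-quartile scaling, which moved the median of all genes to -0.22. With the trends with base composition and length removed, 4 were higher and 5 lower. Since *Cenpf* passed through 1 library only, these counts describe the genes and support no statement on mitotic genes as a class.

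The sum over the 10 genes was 540 counts with AAV-GFP and 596 with AAV-*Wee1-AS*, or 9.54 and 12.6 CPM after scaling. The ratio of these sums was 1.33 (1.18 to 1.49 from counting error). The trends with base composition and length were not removed from these sums. *Top2a* and *Mki67*, which enter them with the highest counts with AAV-*Wee1-AS*, were within counting error once those trends were removed. On the deposited TPM scale, which is per transcript length, the sums were 5.24 and 5.16. The 2 scales weight the genes differently: transcripts of *Cenpf* and *Mki67* reach 11130 and 10075 bases, and those of *Aurkb* and *Aurka* 2177 and 2053 bases. In bulk liver RNA, a larger share of cells with a transcript and more of it per cell cannot be told apart.

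Levels were low on the TPM scale in both libraries. With AAV-GFP the order was *Aurka* (1.69 TPM), *Aurkb* (1.3), *Bub1b* (0.736), *Kif20a* (0.725), *Top2a* (0.497), *Mki67* (0.2), *Kif11* (0.057) and *Cenpe* (0.0409), with *Cenpf* and *Bub1* listed at 0. The Poisson intervals of neighbours overlapped between *Aurka* and *Aurkb*, from *Bub1b* to *Top2a*, and between *Kif11* and *Cenpe*. With AAV-*Wee1-AS* the order was *Aurka* (1.68 TPM), *Top2a* (0.947), *Kif20a* (0.688), *Bub1b* (0.568), *Mki67* (0.48), *Aurkb* (0.357), *Kif11* (0.271), *Cenpe* (0.101) and *Cenpf* (0.0666). There, *Aurka* stood apart from *Top2a* and *Kif11* from *Cenpe*, and all other neighbours overlapped. *Aurka* was first in both libraries, and *Aurkb* was second with AAV-GFP and sixth with AAV-*Wee1-AS*. Among genes with any count, *Aurka* stood at percentile 47.2 of TPM with AAV-GFP and 44.1 with AAV-*Wee1-AS*, and *Cenpe* at percentile 8.09 and 14.2.

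The ratios went with base composition. GC values came from the longest protein-coding GENCODE transcript of a gene, or from its longest transcript where none was protein-coding. All 14995 genes with such a value formed 10 groups of like size. The median log2 ratio went from 1.51 in the group with the lowest GC content (31.2 to 42%) to -0.70 in the highest (58 to 72.8%). Above 2-fold lay 68.9% of the first group and 1.2% of the last. Among the 9 genes, Spearman's rho of the log2 ratio was -0.83 with GC content and 0.80 with length, and the 2 properties were themselves related (-0.73). The same coefficients with GC content were -0.57 over 74 genes of the 5 mitotic lists and -0.69 over all genes. These are descriptions across genes of the same 2 libraries. *Kif11* (42.2% GC), *Cenpe* (42.9%), *Cenpf* (43.3%) and *Top2a* (43.4%) belonged to the second group, whose median was 1.15. *Mki67* (46.6%) lay in the third (0.72), *Kif20a* (48.4%) in the fifth (0.12), *Bub1b* (50.4%) and *Aurka* (51.4%) in the sixth (-0.10) and *Aurkb* (52.5%) in the seventh (-0.35).

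Stretches of coding sequence show what these GC contents look like. A window of 120 bases within 1 coding exon is given for *Kif11* (exon 8, chr19:37390692-37390811, plus strand), *Cenpf* (exon 3, chr1:189683844-189683963, minus strand) and *Aurkb* (exon 7, chr11:69050316-69050435, plus strand) in GRCm38, chosen as the window whose GC content was nearest to that of the whole coding sequence. G and C are in capitals: 42.5% of the bases in *Kif11*, 43.3% in *Cenpf* and 55.8% in *Aurkb*. At the third position of codons the GC content was 39.9%, 45.9% and 71.6%.
Kif11: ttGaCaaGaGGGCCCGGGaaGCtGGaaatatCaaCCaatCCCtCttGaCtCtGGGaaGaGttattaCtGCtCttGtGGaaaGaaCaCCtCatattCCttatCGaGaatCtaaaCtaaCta
Cenpf: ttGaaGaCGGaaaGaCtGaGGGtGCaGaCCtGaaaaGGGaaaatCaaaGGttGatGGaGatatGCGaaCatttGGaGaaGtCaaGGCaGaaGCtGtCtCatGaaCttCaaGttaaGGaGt
Aurkb: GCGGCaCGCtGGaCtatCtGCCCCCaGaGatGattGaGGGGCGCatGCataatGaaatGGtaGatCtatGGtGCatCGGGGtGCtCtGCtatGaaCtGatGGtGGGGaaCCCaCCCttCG

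Set against genes of like composition, *Top2a* and *Cenpe* did not stand out: their log2 ratios were -0.21 and 0.03 from the median of their GC group. After the trends with GC content and length had been removed by lowess fits, *Top2a* was at -0.33, *Cenpe* at -0.40, *Mki67* at 0.05, *Kif11* at 0.57 and *Kif20a* at -0.37. *Aurka* was at 0.35, *Bub1b* at -0.41, *Aurkb* at -1.38 and *Cenpf* at 1.93. By these values *Aurkb* lay below 0.5, where 8.06% of genes with a GC value did, and *Cenpf* above 2-fold, where 6.74% did, while the signs of *Top2a* and *Cenpe* turned. With the counting intervals shifted by the same amounts, that of *Aurkb* ran from -2.25 to -0.75 and that of *Cenpf* began at 0.93, so counting error alone left neither wholly past 2-fold. Those of *Top2a* (-0.71 to 0.09), *Mki67* (-0.35 to 0.53), *Kif11* (-0.25 to 1.96) and *Cenpe* (-1.34 to 0.93) then included 0, and that of *Kif11* overlapped that of *Kif20a* (-0.86 to 0.11). The median of the 9 genes was then -0.33. Both values of *Cenpf*, 1.93 and 2.50 above the median of its GC group, depend on the prior count added to its 0. Whether the trend with base composition has a part in the difference of any of these genes was not tested.

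**Figure D2:**
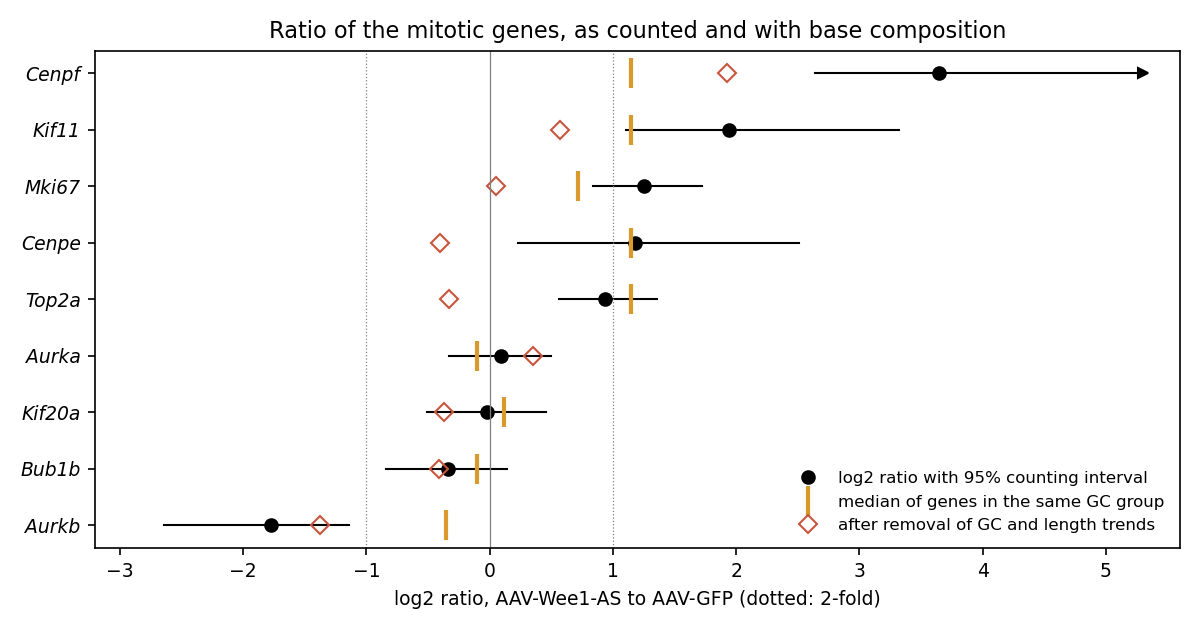
Log2 ratio, AAV-Wee1-AS over AAV-GFP (x axis) of the 9 genes past the count filter: black points with exact 95% counting intervals (the arrow has no upper end), orange ticks for the median of genes in the same GC group, and red diamonds after removal of the GC and length trends. The diamonds of *Aurkb* (-1.38) and *Cenpf* (1.93) lie past the dotted 2-fold lines, and those of *Top2a* and *Cenpe* lie below 0.

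**Figure D3:**
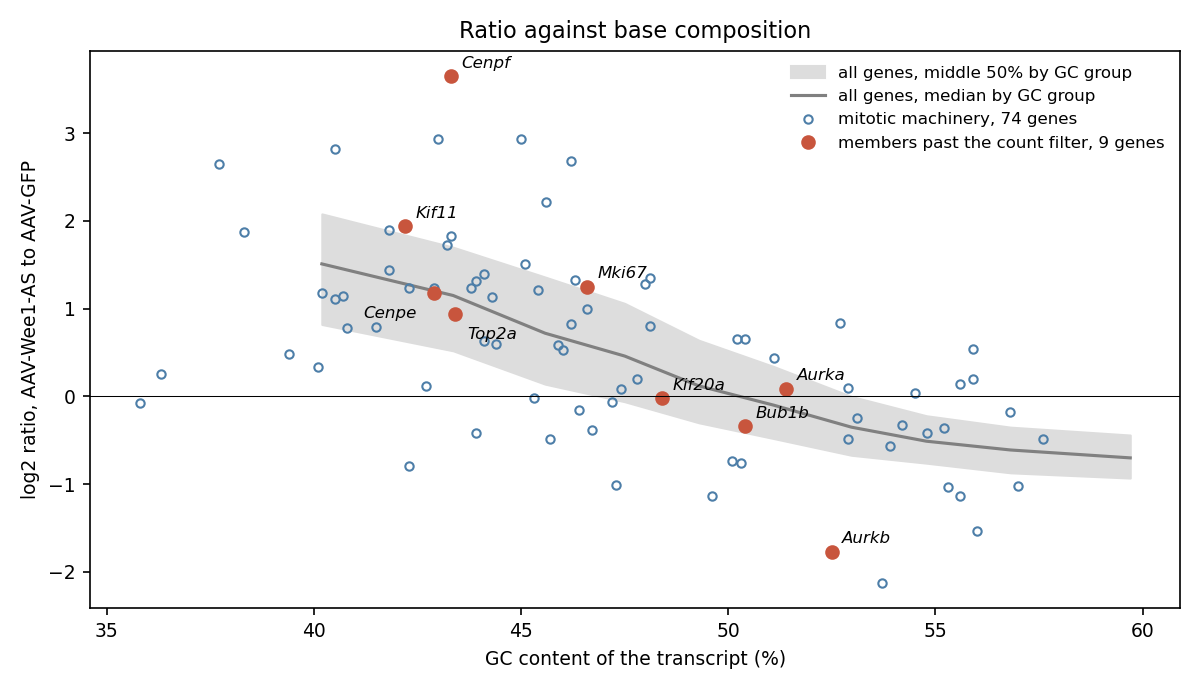
Log2 ratio, AAV-Wee1-AS over AAV-GFP (y axis) against transcript GC content in percent (x axis). The grey line and band give the median and the middle 50% of all genes by GC group, open blue circles the 74 genes of 5 mitotic lists, and red points the 9 genes past the count filter. *Aurkb* lies below the band, *Kif11* and *Cenpf* above it and *Mki67* near its upper edge.

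The deposited counts are estimates shared out between transcripts, and this sharing differed between the libraries. The 10 genes had 25 transcripts, 14 curated and 11 predicted by RefSeq, of which 8 had counts in both libraries and 11 in neither. All 86 counts of *Top2a* with AAV-GFP were assigned to the curated transcript of 5217 bases, and all 139 with AAV-*Wee1-AS* to a predicted one of 5224 bases. The 106 counts of *Aurka* with AAV-GFP were assigned to 1 curated transcript, and with AAV-*Wee1-AS* 30 were assigned to it and 64 to a predicted one. For *Aurkb*, the curated transcript held 69 and 20 counts and the predicted one 18 and 0. For *Kif20a*, 1 curated transcript held 83 and 46 counts and another 0 and 22. Over curated transcripts alone, the log2 ratio of *Top2a* was -5.34 and that of *Aurka* -1.50, whereas that of *Aurkb* was -1.44. Over the most abundant transcript of each gene alone, that of *Top2a* was 6.30. Both values of *Top2a* set its counts in 1 library against 0 in the other and depend on the prior count. The sums over transcripts, used above, do not depend on how counts were shared within a gene. In GENCODE, *Top2a* also shares 122 exon bases with a small nucleolar RNA gene on the same strand.

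**Figure D4:**
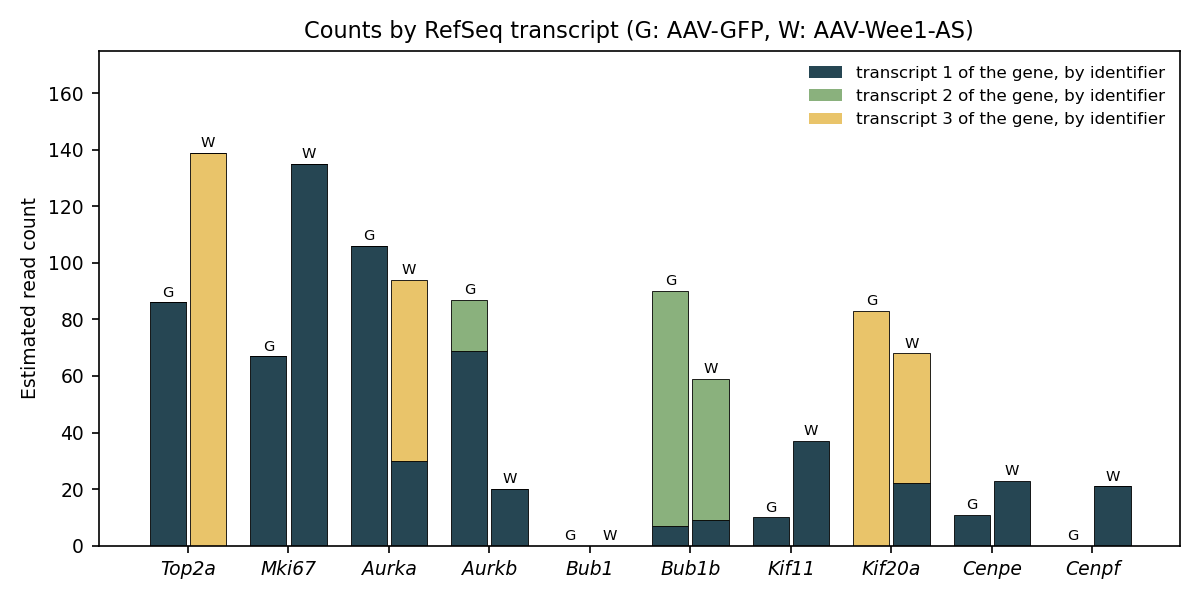
Estimated read counts (y axis) of the 10 genes by RefSeq transcript, stacked, for AAV-GFP (G) and AAV-Wee1-AS (W). Colours number a gene's transcripts by identifier and do not link genes. *Top2a* has 86 counts on 1 transcript with AAV-GFP and 139 on another with AAV-Wee1-AS.

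The kinase and cyclins that start mitosis were examined next, as 1 of 11 lists of related genes. *Wee1*, the inhibitor of CDK1 and the gene that gives the delivered transcript its name, had 635 and 1039 counts, a log2 ratio of 0.97 (0.83 to 1.12). Without knowledge of the strand setting, reads of *Wee1* and of an antisense transcript cannot be told apart. *Cdk1* had 238 and 136 counts (log2 ratio -0.54, -0.86 to -0.23), *Ccnb1* (cyclin B1) 57 and 23 (-0.99, -1.81 to -0.32) and *Ccnb2* (cyclin B2) 128 and 47 (-1.15, -1.70 to -0.69). The 3 partners of the CDK1 complex were thus lower with AAV-*Wee1-AS* by more than counting error, as were 38% of all genes past the filter. In this they were like *Aurkb* and unlike *Top2a* and *Mki67*. After removal of the GC and length trends they were at -1.07, -1.81 and -1.14, and on that scale *Top2a* was also below 0 (-0.33) and *Mki67* at 0.05.

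The 5 lists of mitotic machinery outside the 10 genes held 75 genes, of which 74 passed the filter. Of these, 49 were higher and 25 lower with AAV-*Wee1-AS*, and their median log2 ratio was 0.54. Above 2-fold lay 25 of the 74, where 22.2% of all genes past the filter did, and below 0.5 lay 7, where 8.71% did. *Ttk*, *Ndc80*, *Knl1*, *Ska3*, *Sgo1*, *Sgo2a*, *Kif18a*, *Kif20b* and *Cep55* passed the filter only through AAV-*Wee1-AS*, and all are among the higher. *Cenph*, *Ska1* and *Kif14* passed it only through AAV-GFP, and all are among the lower. The numbers higher, lower and past 2-fold, here and by list, are thus in part set by the filter. After removal of the trends, 38 were higher and 36 lower, 8 lay above 2-fold and 11 below 0.5 (6.74% and 8.06% of all genes with a GC value), and the median was 0.06. No list is a test of the others, since all rest on the same 2 libraries.

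Among 11 genes of the spindle checkpoint, 7 were higher and 4 lower, with a median log2 ratio of 0.59 and, after removal of the trends, 0.44. *Ttk*, the kinase that starts checkpoint signalling, had 0 and 12 counts. Against the floor of 3 counts it was at least 4.8-fold higher with AAV-*Wee1-AS*, if the 12 counts are taken as exact. Its exact log2 interval began lower than this bound, at 1.74. *Zw10*, which brings dynein to kinetochores, had 466 and 678 counts (0.80). *Bub3*, the partner of BUB1 and BUBR1, had 2350 and 1130 (-0.79), and *Cdc20*, the target of the checkpoint, 218 and 82 (-1.13). *Bub3* was thus abundant in a liver in which *Bub1* was listed at 0.

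Among 30 kinetochore and centromere genes, 20 were higher and 10 lower, with a median of 0.71. *Ska3*, of the complex that holds kinetochores to microtubules, likewise had 0 and 12 counts. *Cenpx* had 1709 and 697 counts (-1.03), *Pmf1* 1350 and 800 (-0.49, and 0.29 after removal of the trends) and *Nsl1* 29 and 10 (-1.14). After removal of the trends this list's median was 0.17.

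Of 9 other mitotic kinesins past the filter, 4 were higher and 5 lower, with a median of -0.16 and, after removal of the trends, -0.37, but 1.87 over curated transcripts only. It was -0.56 over genes with 10 or more counts in each library, which leaves out *Kif18a*, *Kif20b* and *Kif14*. *Kif18a*, which limits the length of kinetochore microtubules, had 4 and 17 counts (1.87), *Kifc1*, which clusters spindle poles, 80 and 32 (-1.02), and *Kif22*, a motor bound to chromosome arms, 96 and 17 (-2.12). *Kif22* had the lowest ratio of the 74 genes before removal of the trends, and its counting interval (-3.07 to -1.48) overlapped that of *Aurkb*. After removal, *Bub3* (-1.96) and *Cenpw* (-1.83) lay below *Kif22* (-1.64). Of 13 transport kinesins, which carry cargo and have no fixed tie to mitosis, 9 were higher and 4 lower, with a median of 1.12 and, after removal of the trends, 0.32. *Kif5b* had 229 and 1235 counts (2.68), *Kif1b* 4107 and 7821 (1.19), *Kif1c* 22668 and 11623 (-0.70) and *Kif1a* 17 and 8 (-0.70). Ratios as high as that of *Kif11* were therefore also found in kinesins of transport.

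Of 21 genes of spindle assembly and cytokinesis, 15 were higher and 6 lower, with a median of 0.53 and, after removal of the trends, -0.10. *Nusap1*, which bundles microtubules, had 10 and 36 counts (1.9), *Ckap5*, a microtubule polymerase, 259 and 537 (1.31, and -0.04 after removal of the trends), *Numa1*, which anchors spindle poles, 2933 and 2798 (0.20), and *Plk1*, the Polo-like kinase, 101 and 28 (-1.53). Of 9 transcription factor genes of the G2/M programme, 5 were higher and 4 lower, with a median of 0.08 and, after removal of the trends, -0.08. That median was -0.13 under upper-quartile scaling and 1.51 over the most abundant transcript of each gene. *Foxm1* had 125 and 46 counts (-1.15), *Lin54*, the subunit that binds the CHR, 92 and 330 (2.08), *Nfyc*, of the CCAAT-binding NF-Y, 1235 and 891 (-0.21), and *Rbbp4* 6248 and 4307 (-0.27).

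Of 20 genes of the anaphase promoting complex and its partners, 8 were higher and 12 lower, with a median of -0.26 and, after removal of the trends, -0.11. *Cdc27* had 240 and 932 counts (2.21, and 0.57 after removal of the trends). *Anapc2* had 5696 and 2657 (-0.84), *Anapc5* 4773 and 3068 (-0.37), and *Espl1* (separase) 53 and 16 (-1.37). Of the topoisomerases outside the 10 genes, *Top2b*, the isoform that cells make whether or not they divide, had 298 and 1271 counts (2.35), above the ratio of *Top2a*. After removal of the trends, *Top2b* was at 0.54. *Top1* had 714 and 1930 (1.70, and 0.44 after that removal) and *Top1mt* 731 and 833 (0.45, then 1.06). *Top3a* had 330 and 329 (0.26, then 0.53) and *Top3b* 1036 and 707 (-0.29, then 0.11). *Aurkc*, a further Aurora kinase, was listed at 0 in both libraries. Genes listed with Ki-67 lay on both sides: *Nifk* had 396 and 905 counts (1.45), *Ppp1cb* 1073 and 2429 (1.44), *Ppp1cc* 3618 and 2864 (-0.07) and *Cdca2* 57 and 38 (-0.31). Their median of 0.68 was -0.21 after removal of the trends, with *Ppp1cb* at -0.19. The median of the 5 topoisomerases was 0.45 and then 0.53.

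**Figure D5:**
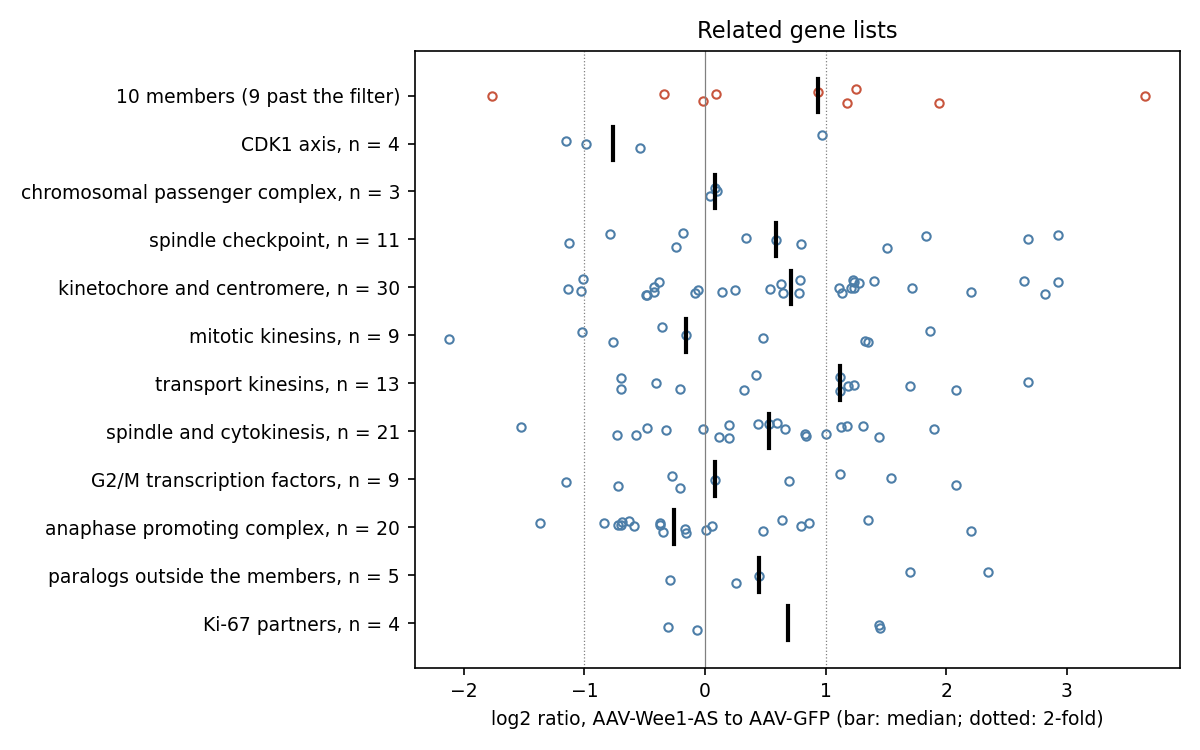
Log2 ratio, AAV-Wee1-AS over AAV-GFP (x axis) of each gene past the count filter (circles, spread vertically for legibility) in the 10 genes (red) and 11 related lists (blue). Black bars are medians and dotted lines 2-fold. The medians run from -0.76 for the CDK1 axis to 1.12 for the transport kinesins, and the 10 genes spread from -1.77 to 3.65, the last being *Cenpf*, whose fitted value depends on the prior count.

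Mitotic RNA of a whole liver may come from any of its cells. Hepatocyte markers (6 of 6 genes detected) summed to 76641 TPM with AAV-GFP and 85653 with AAV-*Wee1-AS*, with 2 of the 6 higher and 4 lower (log2 ratios from -0.62 for *Ttr* to 0.53 for *Alb*), so the liver label was borne out by its defining markers. Kupffer cell markers (7 of 7) summed to 220 and 211 TPM, with log2 ratios from -0.88 (*Cd68*) to 1.60 (*Marco*) within the list. Endothelial markers (6 of 6) summed to 146 and 119 TPM, stellate cell markers (6 of 6, log2 ratios from -1.09 to 1.52) to 97.5 and 117, and cholangiocyte markers (5 genes, *Cftr* at 0 with AAV-GFP) to 3.77 and 3.6. T and NK cell markers (7 of 7) summed to 4.6 and 3.95 TPM and B cell markers (5 genes, *Ms4a1* at 0 with AAV-GFP) to 3.95 and 3.22. Neutrophil markers, with *Ly6g* at 0 in both libraries, summed to 14.3 and 7.03 TPM. The part of these cell types in the values of the 10 genes was not tested.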

How the data were processed

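Poly-A RNA of 1 liver library per group was sequenced with a stranded kit as paired reads of 100 bases. The submitters' processing notes name Trimmomatic 0.38, HISAT2 2.1.0, SAMtools 1.9 and StringTie 2.1.3b with mm10; strand and multimapping settings are not given in the sources used here. For 129299 RefSeq transcripts, the authors deposited an estimated count, not normalized, per library. The deposited FPKM values are scaled to transcript length and library. The deposited TPM values are scaled to length and to an equal sum per library.

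Estimated counts, all whole numbers, were summed per gene symbol and scaled by TMM (edgeR 4.0.16, R 4.3.3, factors 1.02 and 0.98). Log2 ratios took a prior count of 2, and genes with 10 or more counts in either library were kept. Exact 95% intervals (Clopper-Pearson for ratios, Poisson for counts; scipy 1.17.1) cover counting error only. A library at 0 was set to a floor of 3 counts for a bound. GC content and length came from GENCODE transcripts (94.6% of genes kept), and their trends were removed by lowess (statsmodels 0.14.6, span 0.3, 5 cycles). The steps were tested on simulated data. The 10 genes and the 11 gene and 9 marker lists were chosen with earlier results of these data known; 1 marker list is not reported here. Genes named from a list are the 2 with the highest count and those with the highest and lowest ratio, or all genes of lists of 6 or fewer. Other settings tried were scaling by totals, by size factors of DESeq2 1.42.0 and by the upper quartile, other filters and a prior count of 0.5, FPKM and TPM with pseudocounts, curated or most abundant transcripts only and the trends removed. Halved counts and removal of the GC trend alone were added after the data had been seen.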

Additional observations from a re-analysis of the deposited data

How the results depend on the processing

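No paired analysis was possible because each group has 1 library, and for the same reason no library could be left out. Of the 10 genes, 5 lay past 2-fold in either direction. That number was 1 and 0 with FPKM and a pseudocount of 0.1 and 1, 2 with TPM and a pseudocount of 0.1, 2 with the GC and length trends removed and 2 with the GC trend alone removed, and it was 7 over curated and 7 over most abundant transcripts only. Over all genes, 4908 lay past 2-fold, against 1336 with FPKM and a pseudocount of 1, 2218 with both trends removed, 2533 with the GC trend removed and 6894 without the count filter. They divided into 3527 higher and 1381 lower, 2938 and 2232 under the upper quartile, and 1010 and 1208 with both trends removed. *Top2a*, at 6.30 over the most abundant transcript only, reversed to -5.34 over curated transcripts only, to -0.33 with both trends removed and to -0.18 with the GC trend removed, and *Cenpe* reversed to -0.40 with both trends removed and came to 0.00 with the GC trend removed. Pseudocounts of 0.1 and 1 exceed the levels of several of these genes, which by construction pulls their ratios towards 0. *Aurkb* was lower under every alternative that was run (-1.96 to -0.50). The median of the 10 genes kept its sign except with both trends removed (-0.33) and with the GC trend alone removed (0.00). Counts of 10 to 40, as for *Kif11* and *Cenpe* in both libraries and *Cenpf* and *Aurkb* with AAV-*Wee1-AS*, set wide intervals. Without replicates no interval covers the spread between mice.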

Other observations

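Besides *Cenpf*, 4 of the 74 other mitotic genes past the filter had 3 counts or fewer with AAV-GFP and 10 or more with AAV-*Wee1-AS*. These were *Knl1*, the kinetochore scaffold that BUB1 binds, with 2 and 20 counts, *Sgo2a*, a protector of centromeric cohesion, with 0 and 11, and *Ska3* and *Ttk*, each with 0 and 12. After removal of the GC and length trends, *Knl1* went from a log2 ratio of 2.65 to 0.63, *Sgo2a* from 2.82 to 1.28, *Ttk* from 2.93 to 1.92 and *Ska3* from 2.93 to 2.25. The values of *Sgo2a*, *Ttk* and *Ska3* depend on the prior count added to their 0. Of all genes past the filter, 1.55% had 3 counts or fewer with AAV-GFP and 1.78% with AAV-*Wee1-AS*, and none of the 74 (0) did with AAV-*Wee1-AS*. These genes were picked out after their values were seen, and since they passed the filter only through the library in which they are high, nothing is read from their number.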
